A study of Rattus norvegicus with 10 samples.

Results

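The postsynaptic density and dendritic genes are a set of 36 genes most of which encode proteins of the receiving side of synapses or have mRNA that travels into dendrites; it also holds the neurexin genes Nrxn2 and Nrxn3, whose proteins are presynaptic partners of these, and Nlgn2 of inhibitory synapses. They were looked up by symbol in the deposited tables of 17168 genes: 34 matched directly and Lrrtm1 is listed there as LRRTM1, while the expression of Iqsec1 is not analysed here. All 35 genes found passed the filter on low counts, so 35 of the 12161 genes tested are described. Of these, 6 were listed as having mRNA localised to dendrites (Camk2a, Ddn, Nrgn, Shank1, Psd and Itpka) and 29 form the rest. The split follows that list and does not say that mRNA of the 29 is absent from dendrites.

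RNA from left hippocampi was sequenced for 10 male rats of the TgF344-AD strain, killed at 11 months of age. TgF344-AD rats carry human Alzheimer's disease transgenes under the prion promoter, and both groups have them. Plain chow was fed to 5 untreated rats, and 5 rats ate chow with 750 mg per kg of RG2833, which inhibits HDAC1 and HDAC3, enzymes that remove acetyl groups from histones, from 5 months of age for 6 months. One sentence of the series' own text calls the drug ibudilast; the sample labels say RG2833 and were followed. The comparison asks how the drug changes gene expression in transgenic males, and wild-type rats were not analysed here. Each library is 1 rat, so the replicates are separate animals.

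At an excitatory synapse, glutamate receptors are held opposite the release site by a dense protein plate, the postsynaptic density. Membrane-associated guanylate kinases (the Dlg family) bind receptors and adhesion molecules, Dlgap proteins link them to Shank proteins, and Shank proteins reach the actin cytoskeleton through Homer and other partners. Calcium entering through the receptors acts on calmodulin, CaMKII and calcineurin in the same place, which in hippocampal pyramidal cells sets the strength of the synapse. Some neuronal mRNAs, with Camk2a as the textbook case, are carried into dendrites and translated there.

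RefSeq promoter windows (GRCr8 build, 250 bases before to 50 after a gene's start) were found for 27 of the 36 genes, Iqsec1 among them. Of the 4 shown, Camk2b and Nrgn are 2 of the genes that were lowest in 3 libraries described further on, and Dlg4 and Ppp1r9b are 2 that were highest in the same libraries. The capitals mark the GC box GGGCGG on either strand, with overlapping matches joined. The windows are, in the order shown, chr14:85147895-85148194 (minus strand), chr8:45452368-45452667 (minus strand), chr10:55239534-55239833 (plus strand) and chr10:80434650-80434949 (plus strand).
Camk2b: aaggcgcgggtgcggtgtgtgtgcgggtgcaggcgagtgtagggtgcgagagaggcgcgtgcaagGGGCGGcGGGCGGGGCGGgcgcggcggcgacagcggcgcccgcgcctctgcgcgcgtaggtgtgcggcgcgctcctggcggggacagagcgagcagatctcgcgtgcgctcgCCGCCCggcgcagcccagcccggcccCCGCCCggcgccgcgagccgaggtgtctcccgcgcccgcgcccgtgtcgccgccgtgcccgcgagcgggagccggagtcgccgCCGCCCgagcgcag
Nrgn: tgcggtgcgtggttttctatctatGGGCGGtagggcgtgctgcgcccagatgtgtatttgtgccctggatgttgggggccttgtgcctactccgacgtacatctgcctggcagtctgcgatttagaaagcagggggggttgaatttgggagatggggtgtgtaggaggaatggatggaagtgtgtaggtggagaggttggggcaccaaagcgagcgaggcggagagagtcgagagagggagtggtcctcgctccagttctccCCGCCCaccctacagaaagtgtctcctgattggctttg
Dlg4: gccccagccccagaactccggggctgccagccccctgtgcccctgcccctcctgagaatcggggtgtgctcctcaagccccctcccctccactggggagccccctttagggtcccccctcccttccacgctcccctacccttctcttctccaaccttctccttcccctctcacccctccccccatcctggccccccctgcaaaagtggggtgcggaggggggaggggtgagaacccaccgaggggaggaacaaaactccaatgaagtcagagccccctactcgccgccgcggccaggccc
Ppp1r9b: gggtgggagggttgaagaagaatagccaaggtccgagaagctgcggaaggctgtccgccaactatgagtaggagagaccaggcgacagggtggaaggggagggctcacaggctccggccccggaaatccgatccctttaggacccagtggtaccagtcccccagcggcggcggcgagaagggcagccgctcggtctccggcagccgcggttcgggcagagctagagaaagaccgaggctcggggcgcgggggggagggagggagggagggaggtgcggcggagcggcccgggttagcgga
The Camk2b window held 6 GC boxes, counting overlapping ones apart, the Nrgn window held 2, and the other two windows held none. The 4 windows do not stand for their groups: of the genes highest in the same libraries, Dlgap4 had 2 GC boxes and Dlg1 had 1, and of those lowest, Lrrtm1 and Lrrtm2 had none. Over both strands, 33.1% of all 33469 windows held a GC box, against 13 of the 29 windows of these genes (44.8%). Dlgap1 and Iqsec2 each had more than 1 window among the 29. The median share of G and C was 61.7% in the set's windows and 51.7% in all windows, and the GC box holds only these bases. The cAMP response element TGACGTCA was in 1 of the 29, that of Lrrtm2 (1.83% of all windows), and the E-box CACGTG in 1, that of Dlg1 (6.42%). TATAAA was in 3 of the 29 windows (14.2% of all windows) and CCAAT in 10 (37.5%). A match is a run of letters, not a bound site.

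Library totals ran from 15118203 to 18533520 expected counts, which are the estimated reads per gene that RSEM gives. Values below are counts scaled to library size after TMM normalization (CPM), a depth-corrected level; they are not divided by transcript length, so levels of different genes are not compared. Markers of the labelled tissue were present in each library: the lowest value was 4.30 CPM for the granule cell factor Prox1, 7.10 for the granule cell gene C1ql2 and 35.5 for the CA1 gene Fibcd1, each in untreated replicate 3, where the medians of the 10 libraries were 31.0, 77.3 and 181 CPM. On the first principal component of all tested genes outside the set, which held 40.1% of the variance, untreated replicate 3 (34.5), RG2833 replicate 4 (22.1) and RG2833 replicate 5 (33.9) stood at one end, and the other 7 libraries scored from -39.0 to -1.71. Untreated replicate 2 and RG2833 replicate 1, at the other end, are rich in choroid plexus RNA: the mean log2 CPM of 10 choroid plexus genes, centred on all libraries, was 4.63 and 4.81 there and at most 0.39 elsewhere. In a bulk sample, fewer cells of a type and less RNA per cell cannot be told apart.

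None of the 35 genes passed the comparison of RG2833 with untreated rats. The quasi-likelihood test of edgeR gave 0 of 35 with an adjusted p under 0.05, against 0.00% of all 12161 genes, and DESeq2 gave 0 of the 35 and 7 genes in all. At an unadjusted p under 0.05 there was 1 of 35, Homer2, against 5.66% of all genes (2.94% higher in RG2833). The same count was 3 in DESeq2 (6.17% of all genes), 7 in limma-voom with sample weights (10.4%) and 3 without the 2 choroid-rich libraries (4.90%). The log2 CPM of the groups overlapped for each of the 35, while they did not overlap for 1.00% of all genes. The log2 fold change, RG2833 over untreated, was above 0 for 26 of 35, against 46.5% of all genes tested. Some cell type marker lists stood about as far from 0 or further, on either side: 9 of 9 astrocyte markers were above 0 (median 0.33, 2 at an unadjusted p under 0.05), as were 7 of 9 endothelial (median 0.27) and 5 of 6 CA1 markers (median 0.25, 1 at an unadjusted p under 0.05), with 0 at an adjusted p under 0.05 in edgeR. Below 0 were 7 of 10 oligodendrocyte markers (median -0.13) and 5 of 8 interneuron markers (median -0.11, 2 lower and 1 higher at an unadjusted p under 0.05), also with 0 at an adjusted p under 0.05. Their part in the set's count was not tested. The median log2 fold change was 0.11 over the set and -0.011 over all genes, and in the set it ran from -0.17 for Dlg3 to 0.41 for Homer2. The standard errors (SE) ran from 0.061 to 0.32.

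**Figure D1:**
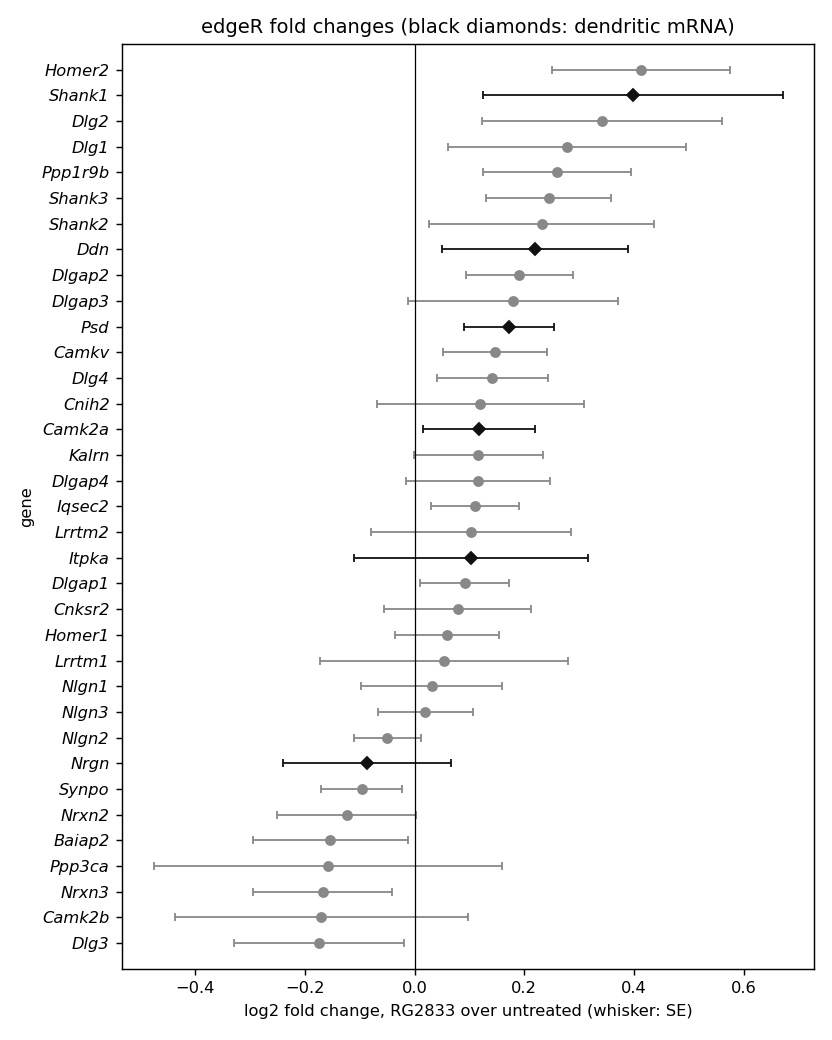
Log2 fold change of RG2833 over untreated rats (x axis) for each of the 35 genes (y axis), with the standard error as whiskers; black diamonds are the 6 genes with dendritic mRNA and grey circles the other 29. Values run from -0.17 to 0.41, and 26 of the 35 lie above 0.

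The 6 genes with dendritic mRNA did not behave as one block. Ddn, Shank1, Psd and Camk2a had higher means in RG2833 rats, Itpka and Nrgn differed by less than their SE in opposite directions, and none passed the test. Levels are given for replicates 1 to 5 in order, and group values as mean ± SD (n = 5 in each group).

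Ddn encodes dendrin, a postsynaptic protein whose mRNA lies along dendrites. It was at 2179, 2072, 3632, 1989.8 and 2335 CPM in untreated rats, and at 2401, 2574, 2984, 3077 and 3172 CPM in RG2833 rats. Each RG2833 library was above 4 of the 5 untreated ones, and untreated replicate 3 was above all of them. The means were 2442 ± 678 and 2842 ± 336 CPM, a log2 fold change of 0.22 (SE 0.17; edgeR adjusted p = 0.904). Without untreated replicate 3 the log2 fold change was 0.41 (edgeR adjusted p = 0.280). Without that library and RG2833 replicates 4 and 5 it was 0.30.

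Shank1, a scaffold that ties the receptor complexes to actin, was at 1084, 900.3, 2189, 1200.2 and 1127 CPM in untreated and 1153, 1303, 1522, 2216 and 2369.9 CPM in RG2833 rats. The values fell into 2 ranges: untreated replicate 3 and RG2833 replicates 4 and 5 were between 2189 and 2369.9 CPM, and the other 7 were between 900.3 and 1522 CPM. This was a log2 fold change of 0.40 (SE 0.27; edgeR adjusted p = 0.881), which was 0.67 without untreated replicate 3 and 0.29 without all 3 of these libraries.

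Psd encodes an exchange factor that activates ARF6, a small GTPase of membrane traffic. Its values were 693, 700.1, 783, 630.4 and 799.6 CPM untreated and 782, 787, 887, 801 and 805 CPM with RG2833. All 5 RG2833 libraries were above the untreated median and 3 were above the untreated maximum. Between groups the log2 fold change was 0.17 (SE 0.082; edgeR adjusted p = 0.841), with an unadjusted edgeR p of 0.0616.

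Camk2a, the alpha subunit of CaMKII, was at 1619, 1618, 1909.9, 1743 and 1579 CPM untreated and 1574, 1732, 2199, 1787 and 1897 CPM with RG2833. RG2833 replicate 3 was the highest library and RG2833 replicate 1 the lowest, so the RG2833 range enclosed the untreated one. The log2 fold change was 0.12 (SE 0.10; edgeR adjusted p = 0.916), which ran from 0.045 to 0.17 with 1 library left out.

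Nrgn encodes neurogranin, which binds calmodulin when calcium is low. It was at 2053, 2021, 1334, 1617 and 2206 CPM untreated and 1869.7, 1979, 1920.2, 1472 and 1451 CPM with RG2833. No RG2833 library was above the untreated median, and none was outside the untreated range. RG2833 over untreated gave a log2 fold change of -0.087 (SE 0.15; edgeR adjusted p = 0.965), which ran from -0.18 to -0.012 with 1 library left out.

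Itpka, an inositol trisphosphate kinase that also bundles actin in spines, was at 162, 159, 100.2, 115 and 203 CPM untreated and 184, 188, 186, 118 and 117 CPM with RG2833. Both groups were split, with untreated replicates 3 and 4 and RG2833 replicates 4 and 5 between 100.2 and 118 CPM and the other 6 between 159 and 203 CPM. Its log2 fold change was 0.10 (SE 0.21; edgeR adjusted p = 0.974), and -0.0070 without untreated replicate 3.

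**Figure D2:**
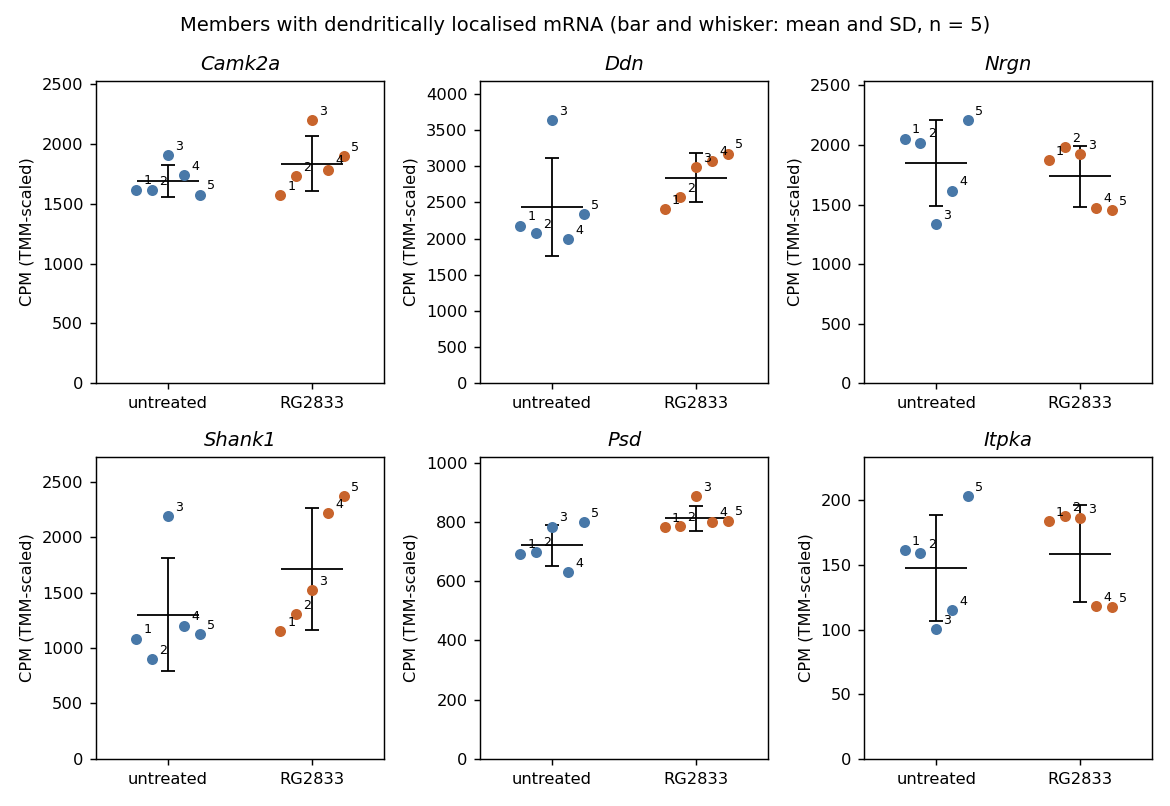
CPM on the TMM-scaled library size (y axis, from 0) of the 6 genes with dendritic mRNA in untreated (blue) and RG2833 (orange) rats; each point is a library with its replicate number, and bar and whiskers are mean and SD (n = 5). For Shank1, untreated replicate 3 and RG2833 replicates 4 and 5 are at 2189 to 2369.9 CPM, while the same libraries are the 3 lowest for Nrgn.

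Set against the other 29 genes, the dendritic group differed little between RG2833 and untreated rats. The mean log2 CPM of the 6 minus that of the 29 was taken per library and centred on the 10 libraries. It was -0.14, -0.042, 0.15, -0.19 and 0.022 in untreated replicates 1 to 5 and -0.010, 0.025, 0.038, 0.064 and 0.082 in RG2833 replicates 1 to 5. The untreated libraries spread widely (SD 0.14) and the RG2833 libraries narrowly (SD 0.036), and no RG2833 library was above the highest untreated one. The difference between groups was 0.080, less than the SD among untreated rats. It was made of a mean difference of 0.16 for the 6 genes and 0.084 for the 29. With 1 gene of the 6 left out at a time it ran from 0.031 without Shank1 to 0.13 without Nrgn, and with 1 library left out from 0.042 without untreated replicate 4 to 0.13 without untreated replicate 3.

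Among the 15 scaffold genes, 13 had a log2 fold change above 0 and 2 below, with a median of 0.18. Homer2 and Shank3 had the smallest unadjusted p. Homer2, which joins Shank proteins to metabotropic glutamate receptors, was at 16.0, 14.5, 25.7, 21.3 and 18.2 CPM untreated and 20.6, 23.0, 24.6, 29.5 and 29.7 CPM with RG2833. All RG2833 libraries were above the untreated median, and 2 were above the untreated maximum, which was that of replicate 3. This was a log2 fold change of 0.41 (SE 0.16; edgeR adjusted p = 0.841), with an unadjusted edgeR p of 0.0280; the latter was no longer under 0.05 without untreated replicate 1, 2 or 5 or without RG2833 replicate 4 or 5. Homer1, its paralogue, had a log2 fold change of 0.060 (SE 0.095; edgeR adjusted p = 0.958); its long and short forms are not separated in these tables.

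Shank3, a scaffold gene mutated in Phelan-McDermid syndrome, was at 633, 610.2, 766, 687 and 639 CPM untreated and 623, 709.9, 888, 849 and 884 CPM with RG2833. RG2833 replicates 3, 4 and 5 were above the untreated maximum, and replicate 1 was near the untreated minimum. The log2 fold change was 0.24 (SE 0.11; edgeR adjusted p = 0.841), with an unadjusted edgeR p of 0.0553. Shank2 ranged over 274 to 507 CPM untreated and 308 to 492 CPM with RG2833, with a log2 fold change of 0.23 (SE 0.20; edgeR adjusted p = 0.919). With 1 library left out it ran from 0.14 to 0.43, highest without untreated replicate 3. Part of the Shank2 counts were not whole, so some of its reads were shared among sequences.

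Of the Dlgap genes, which link Dlg proteins to Shank proteins, Dlgap2 was at 48.4, 38.6, 45.5, 49.0 and 44.4 CPM untreated and 41.6, 49.2, 55.1, 55.3 and 56.6 CPM with RG2833. In 4 of the 5 RG2833 libraries it was above the untreated maximum, and replicate 1 was in the untreated range. In edgeR the log2 fold change was 0.19 (SE 0.097; edgeR adjusted p = 0.841). Dlgap3 ranged over 452 to 904 CPM untreated and 525 to 760.1 CPM with RG2833, Dlgap4 over 205 to 325 CPM untreated and 230.1 to 300.5 CPM with RG2833, and Dlgap1 over 297 to 377 CPM untreated and 341 to 408 CPM with RG2833. In each of these 3 the highest or the lowest untreated value was that of replicate 3: highest for Dlgap3 and Dlgap4, lowest for Dlgap1. Their log2 fold changes were 0.18 (SE 0.19), 0.12 (SE 0.13) and 0.092 (SE 0.081). Without untreated replicate 3 that of Dlgap3 was 0.40 and that of Dlgap4 0.25. Without that library and RG2833 replicates 4 and 5, that of Dlgap3 was 0.24. With any other single library left out, Dlgap3 was lowest at 0.10 (without untreated replicate 2) and Dlgap4 at 0.059 (without RG2833 replicate 5).

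The 4 Dlg genes were not alike. Dlg4, which encodes the main scaffold of the mature density, was at 1049, 966, 1296, 1044 and 1043 CPM untreated and 1053, 1089.8, 1216, 1260.4 and 1336 CPM with RG2833, a log2 fold change of 0.14 (SE 0.10; edgeR adjusted p = 0.892). Dlg1 ranged over 61.7 to 102 CPM untreated and 70.1 to 136 CPM with RG2833 (log2 fold change 0.28, SE 0.22) and Dlg2 over 92.8 to 191 CPM untreated and 122 to 219 CPM with RG2833 (log2 fold change 0.34, SE 0.22). With 1 library left out, Dlg1 ran from 0.089 to 0.41 and Dlg2 from 0.23 to 0.50. Over all alternatives Dlg1 was lowest at 0.047. Dlg3, which is prominent early in synapse development, was at 175, 169, 113, 151 and 162 CPM untreated and 155, 145, 167, 108 and 108 CPM with RG2833. Its 3 lowest libraries were RG2833 replicates 4 and 5 and untreated replicate 3, between 108 and 113 CPM, and the other 7 were between 145 and 175 CPM. Its log2 fold change was -0.17 (SE 0.15; edgeR adjusted p = 0.919).

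Baiap2, an adaptor that bends membrane and recruits actin regulators, was at 183, 192, 138, 144 and 193 CPM untreated and 168, 165, 182, 126 and 122 CPM with RG2833. No RG2833 library was above the untreated median, and replicates 4 and 5 were below the untreated minimum. Its log2 fold change was -0.15 (SE 0.14; edgeR adjusted p = 0.919). Cnksr2, a scaffold of Ras signalling, ranged over 146 to 239 CPM untreated and 172 to 242 CPM with RG2833, with a log2 fold change of 0.079 (SE 0.13).

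Of the 35 genes, 5, which are Dlg4, Dlgap3, Dlgap4, Ppp1r9b and Ddn, had all RG2833 libraries above each untreated library other than replicate 3. In all, 4.63% of genes had groups that did not overlap without that replicate; it was singled out after the values were seen, so the 5 genes are a description. The edgeR fit without it had 12 of the 35 genes at an unadjusted p under 0.05, against 14.2% of all genes, and all 12 were higher in RG2833. They were Camkv, Ddn, Dlg2, Dlg4, Dlgap3, Dlgap4, Homer2, Ppp1r9b, Psd, Shank1, Shank2 and Shank3, with log2 fold changes from 0.20 for Camkv to 0.67 for Shank1. None had an adjusted p under 0.05 in that fit (0.280 to 0.350). It kept RG2833 replicates 4 and 5, which stood with untreated replicate 3 on the first principal component. Such libraries were then in the RG2833 group only, and the part of that component in these fold changes was not tested. Leaving out untreated replicate 3 together with RG2833 replicates 4 and 5, a choice made after the values were seen, left 5 genes at an unadjusted p under 0.05, against 5.37% of all genes: Ddn, Dlgap3, Homer2, Ppp1r9b and Shank1, with log2 fold changes from 0.24 to 0.37 and adjusted p of at least 0.869.

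The 8 adhesion genes, Cnih2 included, had 5 log2 fold changes above 0 and 3 below, with a median of 0.026. Neurexins are presynaptic partners of the postsynaptic neuroligins. Nrxn3 was at 109, 91.3, 79.0, 106 and 99.6 CPM untreated and 93.8, 96.4, 98.4, 77.7 and 64.9 CPM with RG2833; no RG2833 library was above the untreated median, and 2 were below the untreated minimum. Its log2 fold change was -0.17 (SE 0.13; edgeR adjusted p = 0.901). Nrxn2 was at 519, 447, 726, 481 and 475 CPM untreated and 444, 481, 479, 523 and 504 CPM with RG2833, and untreated replicate 3 was above all the other libraries. RG2833 over untreated gave a log2 fold change of -0.12 (SE 0.13; edgeR adjusted p = 0.922) and became 0.017 without it.

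The neuroligins differed by less than their error. Nlgn2, found at inhibitory synapses, had the narrowest spread of the set, 271 to 319 CPM untreated and 266 to 289.9 CPM with RG2833 (log2 fold change -0.050, SE 0.061). Nlgn1 ranged over 37.5 to 63.6 CPM untreated and 45.2 to 56.2 CPM with RG2833 (0.032, SE 0.13) and Nlgn3 over 102 to 135 CPM untreated and 107 to 137 CPM with RG2833 (0.019, SE 0.086). Lrrtm1 and Lrrtm2, leucine-rich postsynaptic partners of neurexins, had log2 fold changes of 0.054 (SE 0.23) and 0.10 (SE 0.18). Lrrtm1 was at 49.2 CPM in untreated replicate 3 and between 77.4 and 115 CPM in the other untreated rats. Cnih2, an auxiliary protein of AMPA receptors, ranged over 417 to 750.2 CPM untreated and 462 to 796 CPM with RG2833 (0.12, SE 0.19).

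Calcium signalling genes were split, with 3 of the 6 log2 fold changes above 0 and 3 below and a median of 0.0079, and held the widest spread of the set. Ppp3ca, the catalytic subunit of calcineurin, was at 848, 950.3, 308, 708 and 1022 CPM untreated and 827, 824, 893, 432 and 463 CPM with RG2833. Its highest library was 3.32 times its lowest, and untreated replicate 3 and RG2833 replicates 4 and 5 were the 3 lowest. Camk2b, the beta subunit of CaMKII, was at 1859, 2059, 824, 1496 and 1993 CPM untreated and 1697, 1713, 1888, 1038 and 983 CPM with RG2833, with the same 3 libraries lowest. The log2 fold changes were -0.16 (SE 0.32; edgeR adjusted p = 0.972) and -0.17 (SE 0.27; edgeR adjusted p = 0.958). With 1 library left out, Ppp3ca ran from -0.36 without untreated replicate 3 to -0.025 without RG2833 replicate 4, and Camk2b from -0.34 without untreated replicate 3 to -0.051 without RG2833 replicate 5. Camkv, a kinase-like protein without known kinase activity, ranged over 461 to 616 CPM untreated and 547 to 622 CPM with RG2833, with a log2 fold change of 0.15 (SE 0.095).

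Among genes of the spine cytoskeleton and of exchange factors, 5 of 6 had a log2 fold change above 0, with a median of 0.14. Ppp1r9b encodes spinophilin, which holds protein phosphatase at spine actin, and was at 1771, 1575, 2409, 1803 and 1745 CPM untreated and 1822, 2001, 2329, 2477 and 2506 CPM with RG2833. Each RG2833 library was above every untreated one but replicate 3, and 2 were above that one too. The log2 fold change was 0.26 (SE 0.13; edgeR adjusted p = 0.841), with an unadjusted edgeR p of 0.0808. Synpo, synaptopodin of the spine apparatus, was at 122, 126, 109.8, 107 and 119.8 CPM untreated and 107, 108, 126, 102 and 104 CPM with RG2833. RG2833 replicates 4 and 5 were below the untreated range by more than rounding, and replicates 1 and 3 were level with its lower and upper end. Between groups the log2 fold change was -0.096 (SE 0.074; edgeR adjusted p = 0.903). Kalrn, an exchange factor for Rac, ranged over 306 to 450.0 CPM untreated and 359 to 500.5 CPM with RG2833 (0.12, SE 0.12), and Iqsec2, an exchange factor for ARF proteins, over 299 to 356 CPM untreated and 307 to 371 CPM with RG2833 (0.11, SE 0.080).

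**Figure D3:**
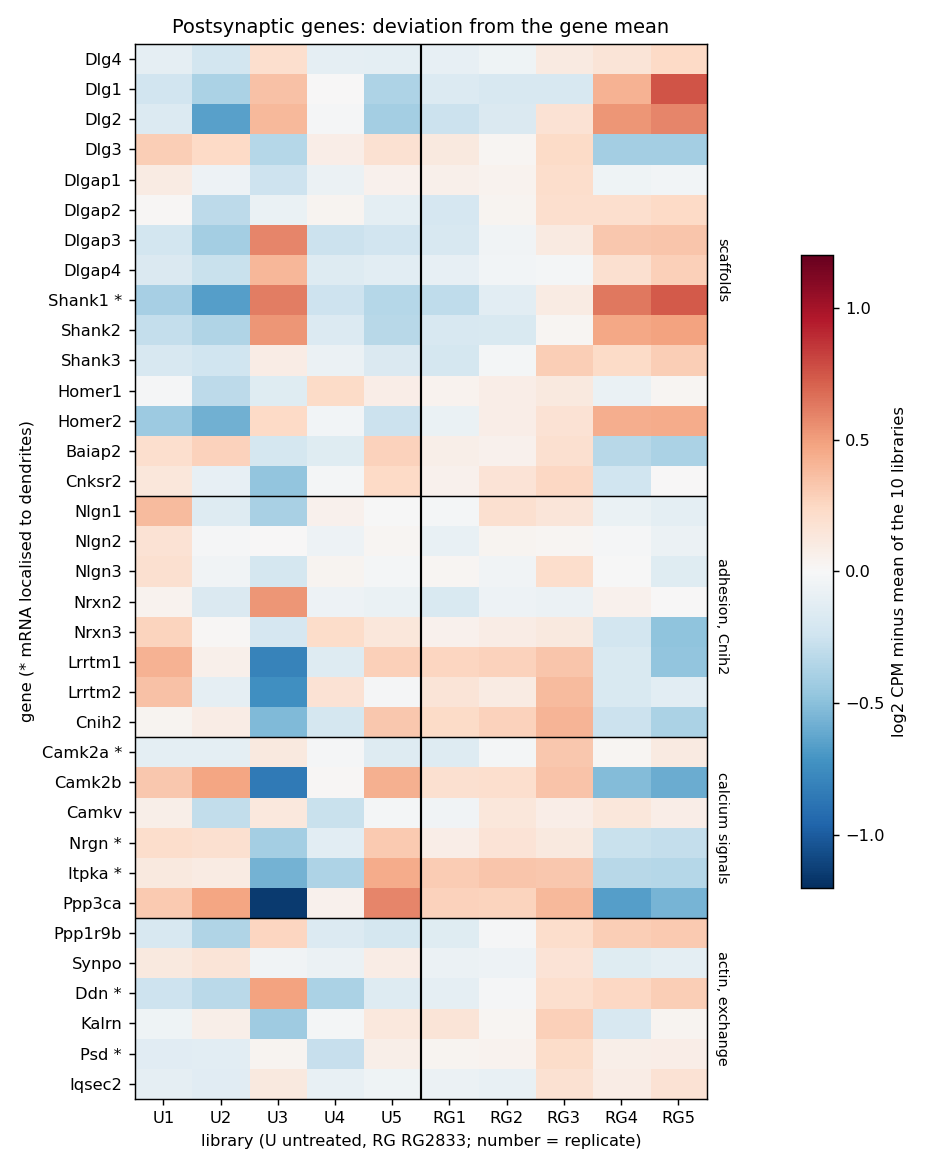
Log2 CPM minus the gene's mean over the 10 libraries (colour scale) for the 35 genes (rows, by role; a star marks dendritic mRNA) in the 10 libraries (columns; U untreated, RG RG2833). Columns U3, RG4 and RG5 are red for Shank1, Shank2, Dlgap3 and Dlg2 and blue for Camk2b, Ppp3ca and Dlg3.

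The highest and the lowest libraries of a gene often came from both groups. For 10 of the 35 genes the 3 highest of the 10 libraries were untreated replicate 3 and RG2833 replicates 4 and 5: Dlg1, Dlg2, Dlg4, Dlgap3, Dlgap4, Shank1, Shank2, Homer2, Ppp1r9b and Ddn. For 9 genes the same 3 libraries were the 3 lowest: Dlg3, Baiap2, Nrxn3, Lrrtm1, Lrrtm2, Cnih2, Camk2b, Nrgn and Ppp3ca. Together these are 19 of 35 (54.3%), where 30.7% of all genes tested had these libraries as the 3 highest or 3 lowest; the libraries were singled out after the values were seen, so this is a description. Of the dendritic genes, Shank1 and Ddn were in the first group and Nrgn in the second. Promoter windows with a GC box were found for 2 of the 6 genes with a window in the first group and for 5 of the 7 in the second, beside 33.1% of all windows and 44.8% of the set's; the groups are small and follow libraries picked with the values known. RG2833 replicate 3 was the highest of the 10 libraries for 11 of the 35 genes (6.42% of all genes), and untreated replicate 2 the lowest for 14 (13.0% of all genes). The SD of log2 CPM over the 10 libraries was above the median of all genes (0.19) for 24 of the 35, and ran from 0.074 for Nlgn2 to 0.58 for Ppp3ca.

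Within several gene families, paralogues differed in how far, and for some pairs in which direction, they departed from their mean in these animals. Ratios of 2 paralogues were taken per library on the log2 scale and centred, so that only their course over libraries is read. The Camk2a to Camk2b ratio was 0.97 in untreated replicate 3, 0.54 and 0.71 in RG2833 replicates 4 and 5, and from -0.59 to -0.021 in the other 7 libraries, a 2.95-fold range. The Dlg4 to Dlg3 ratio was 0.54, 0.56 and 0.65 in these 3 libraries and from -0.46 to -0.070 in the others. The Dlgap3 to Dlgap1 ratio was 0.83, 0.37 and 0.37 in them and from -0.35 to -0.081 elsewhere. Nrxn2 to Nrxn3, Shank1 to Shank3, Homer2 to Homer1 and Dlg2 to Dlg3 had the same 3 libraries on top. Of the 8 ratios computed, Nlgn2 to Nlgn1 did not: untreated replicates 3 and 2 were highest (0.39 and 0.14), with RG2833 replicates 4 and 5 at 0.064 and 0.043. Each of the other ratios holds at least 1 gene named above for having these libraries as its 3 highest or 3 lowest. Nlgn2 to Nlgn1 holds no such gene, so the order of the libraries in the ratios restates that earlier choice. The group means of the Camk2a to Camk2b ratio were -0.13 ± 0.66 untreated and 0.13 ± 0.47 with RG2833, a difference smaller than either SD (n = 5 each).

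**Figure D4:**
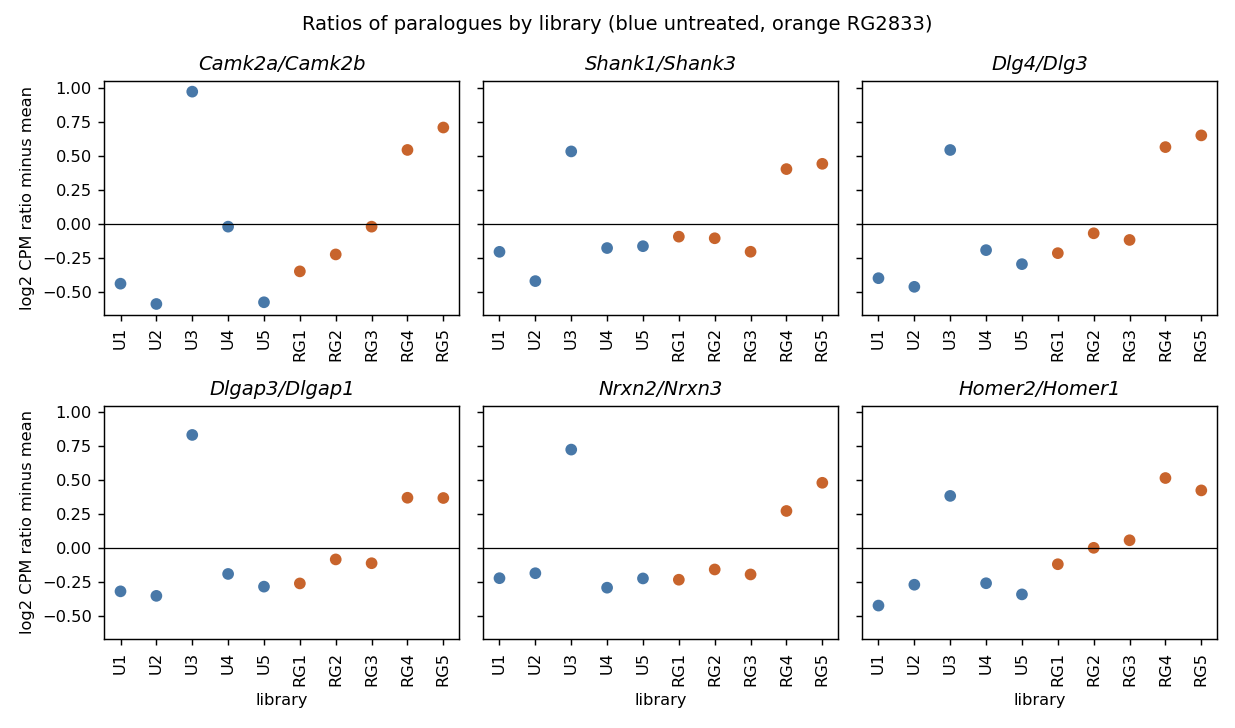
Log2 CPM ratio of 2 paralogues minus its mean over the 10 libraries (y axis) in each library (x axis; U untreated in blue, RG RG2833 in orange). In the 6 of 8 computed ratios shown, U3, RG4 and RG5 are the 3 highest libraries, from 0.28 (Nrxn2 to Nrxn3 in RG4) to 0.97 (Camk2a to Camk2b in U3).

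Several cell type marker lists and ribosomal RNA differed in the same libraries, and their part in the values above was not tested. As mean log2 CPM centred on the 10 libraries, the CA3 pyramidal list (5 of 7 genes tested) was at -1.33, -0.43 and -0.82 in untreated replicate 3 and RG2833 replicates 4 and 5, and from 0.23 to 0.51 in the others. The dentate granule list (6 of 8 tested) was at -1.43, -0.19 and -0.24, and from -0.056 to 0.59 elsewhere. Astrocyte markers (9 of 10 tested) were at 0.25, 0.38 and 0.40, against -0.43 to 0.13, and microglia markers (10 of 10) at 0.62, 0.22 and 0.31, against -0.29 to 0.025. Endothelial markers (9 of 10) were at 0.48, 0.30 and 0.65, against -0.49 to 0.16. Of 3 lists for neighbouring regions, 2 were also higher there: neocortex markers (8 of 8) were at 0.15, 0.30 and 0.43 and striatum markers (8 of 8) at 0.45, 0.21 and 0.39, and untreated replicate 4 (0.31 and 0.23) was the only other library above 0 in either list. Thalamus markers (7 of 8 tested) did not follow, at 0.18, -0.083 and -0.0041, with untreated replicates 4 and 2 highest (0.40 and 0.26). CA1, oligodendrocyte and interneuron markers did not set these libraries apart. In the same order, CA1 pyramidal markers (6 of 7 tested) were at -0.43, -0.12 and 0.18, against -0.35 to 0.51. Oligodendrocyte markers (10 of 10) were at -0.41, -0.11 and 0.42, against -0.32 to 0.40, and interneuron markers (8 of 8) at 0.32, 0.076 and -0.026, against -0.46 to 0.21.

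By group, summed levels overlapped for each of the first 5 lists. The CA3 list summed to 279.7 to 1163 CPM untreated and 425 to 1148 CPM with RG2833, and the granule list to 213 to 482 and 277 to 446 CPM. Astrocyte markers summed to 8082 to 12538 and 9359 to 14281 CPM, microglia markers to 612 to 1126 and 655 to 914 CPM, and endothelial markers to 295 to 568 and 352 to 655 CPM. Tdo2 of the granule list had no count in any library and Iyd of the CA3 list had none in at least 1; the other markers of these lists with a row were counted in every library. Ribosomal RNA took 11.4%, 9.37% and 8.92% of the counts in untreated replicate 3 and RG2833 replicates 4 and 5, and from 4.07% to 8.71% in the other 7.

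**Figure D5:**
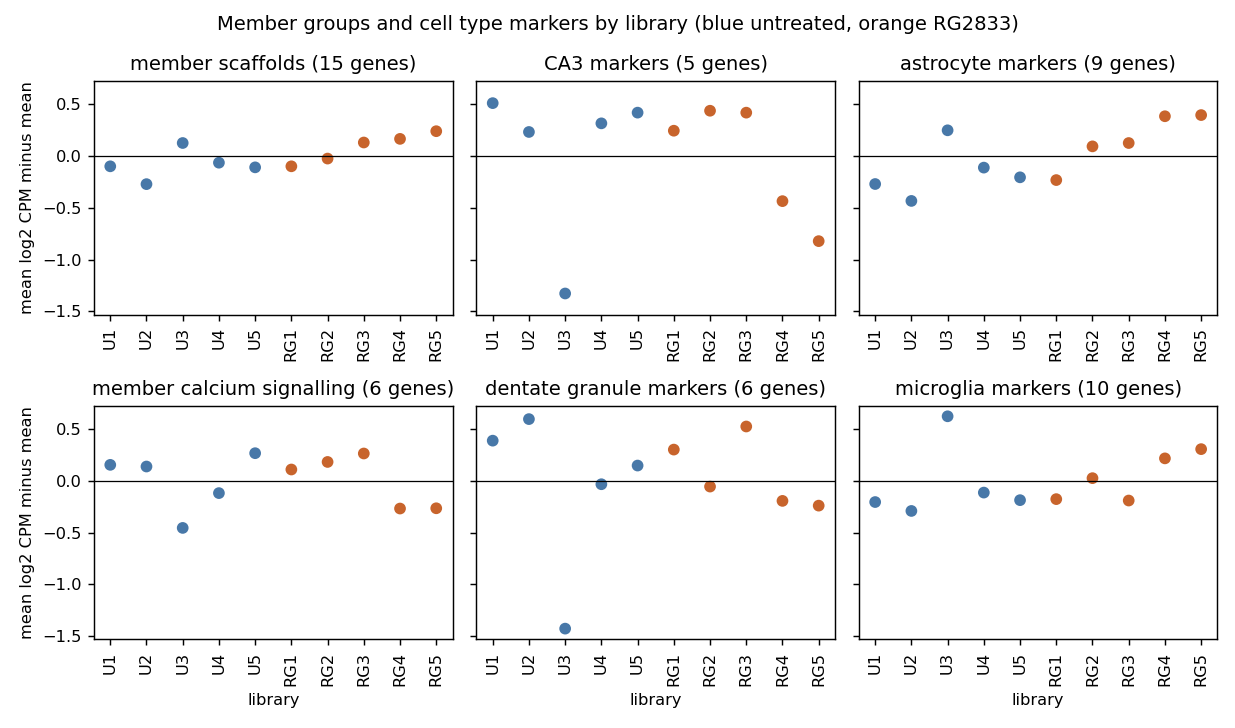
Mean log2 CPM of a gene list minus its mean over the 10 libraries (y axis) in each library (x axis; U untreated in blue, RG RG2833 in orange), for the scaffold and calcium signalling genes of the set and for 4 marker lists. U3, RG4 and RG5 are the 3 lowest libraries for calcium signalling, CA3 and granule cell markers and the 3 highest for astrocyte and microglia markers.

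Of 41 other postsynaptic genes listed outside the set, 37 were tested: 20 had a log2 fold change above 0 and 17 below, with a median of 0.032. At an adjusted p under 0.05 there were 0, and 3 had an unadjusted p under 0.05, each higher in RG2833 (2.94% of all genes). The groups did not overlap for 1 of the 37, against 1.00% of all genes. Nsmf, a messenger from synapse to nucleus, was at 1349.7 ± 86.1 CPM untreated and 1742 ± 183 CPM with RG2833 (a log2 fold change of 0.37, SE 0.091; edgeR adjusted p = 0.841). Iqsec3, an ARF exchange factor of inhibitory synapses, was at 469 ± 69.9 and 628 ± 84.7 CPM (a log2 fold change of 0.42, SE 0.13; edgeR adjusted p = 0.841). The lower genes with the smallest p were Camk4 (-0.30, SE 0.16) and Lrrtm4 (-0.21, SE 0.16).

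Of 8 further genes reported to have dendritic mRNA, 6 had a log2 fold change above 0 and 2 below, with a median of 0.11. Itpr1, the inositol trisphosphate receptor of the endoplasmic reticulum, was at 654 ± 73.4 CPM untreated and 813 ± 81.2 CPM with RG2833 (a log2 fold change of 0.31, SE 0.10; edgeR adjusted p = 0.841). Map2, a microtubule protein of dendrites, had a log2 fold change of 0.43 (SE 0.20; edgeR adjusted p = 0.841). All 14 neuronal genes chosen as having mRNA kept mostly in the cell body, among them Nefl, Gap43 and Syn1, had a log2 fold change below 0, with a median of -0.11, against 46.5% of all genes above 0. None of the 14 had an unadjusted edgeR p under 0.05. These genes come from the same libraries and vary together, so their number is not a number of independent observations.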

How the data were processed

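The deposited values are RSEM expected counts per gene, which need not be whole (11.6% were not), and a second table of the authors' TMM-normalized CPM signal. In the latter, 100.0% of the values above 0 lay within 0.02 of a whole multiple of 1 step per library, and 99.9% of the reads so recovered equalled the rounded expected counts. Per the submitters' processing notes, bcl2fastq 2.17, Bowtie2 2.1.0, RSEM 1.2.15, edgeR and the rn6 build were used; per the labels' protocols, libraries were strand-specific mRNA libraries. The annotation and counting settings are not given in the sources used here. Paralogues can share reads.

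Rounded expected counts entered edgeR 4.0.16 (R 4.3.3) after filterByExpr (minimum count 10, minimum total 15; 12161 of 17168 genes kept), with TMM scaling. Its quasi-likelihood F test (robust) ran over all genes, adjusted by the Benjamini-Hochberg method at 0.05. Standard errors were taken from the F statistic, and log2 CPM used a prior count of 2. The fit was tested on simulated data. Alternatives used limma 3.58.1 and DESeq2 1.42.0, other scalings and filters, and left libraries out. The authors' CPM table entered limma as log2(CPM + 1). Total counts of 15118203 to 18533520 per library give small counting error for these genes, so the spread between animals sets the precision. The smallest chi-square statistic per gene between any 2 of the 45 pairs of libraries was 7.20, where sampling noise gives about 1, so none was a repeat.

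The genes and lists were chosen with earlier results of these data known. Values per library are printed for the 6 dendritic genes, for the 5 genes with the smallest unadjusted p in each direction, and for Dlg4, Camk2b and Ppp3ca, added after their values were seen; the other genes are given by range.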

Additional observations from a re-analysis of the deposited data

Results flagged for a closer look

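For each gene and for the dendritic difference, the highest and lowest library of a group were compared with the 4 remaining ones. Gaps and ranges were taken on the log2 scale, while the levels below are in CPM. A gap above 0.71 of the range of the 5 values was found in 7 of 72 such sets, and chance gives about 3.6 (1 in 20). The sets come from the same libraries and vary together, so no excess is read from these counts. Untreated replicate 3 was the high value in 5 of them. Dlg4 was at 1296 CPM there, against 966 to 1049 in the other untreated rats, a gap of 0.722 of the log2 range. Dlgap3 was at 904 CPM, against 452 to 518 (0.805), and Dlgap4 at 325 CPM, against 205 to 226 (0.791). Shank2 was at 507 CPM, against 274 to 314 (0.778), and Ddn at 3632 CPM, against 1989.8 to 2335 (0.734). RG2833 replicate 3 was the high value in the other 2 sets. Synpo was at 126 CPM there, against 102 to 108 in the other RG2833 rats (0.718), and Psd at 887 CPM, against 782 to 805 (0.774).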

How the results depend on the processing

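No gene of the set had an adjusted p under 0.05 in any of the 21 alternatives that gave a test per gene; the smallest was 0.280. Of the 35 log2 fold changes, 27 kept their sign in these 21 and 8 did not. With 1 library left out, Homer1 ran from -0.0056 to 0.13, Nlgn1 from -0.049 to 0.14, Cnksr2 from -0.014 to 0.15, Itpka from -0.0070 to 0.25, Lrrtm1 from -0.092 to 0.17, Lrrtm2 from -0.030 to 0.21, Nlgn3 from -0.035 to 0.073 and Nrxn2 from -0.18 to 0.017; Homer1 was at -0.014 without the 2 libraries rich in choroid plexus RNA. The number of the 35 genes at an unadjusted p under 0.05 was 2 with the replicate block, 3 in DESeq2, 7 in limma-voom with sample weights (10.4% of all genes), 3 without the 2 choroid-rich libraries and 5 without the 3 libraries that stand apart, and ran from 0 to 12 with 1 library left out: 12 without untreated replicate 3, 4 without RG2833 replicate 1 (7.59% of all genes), and 0 when untreated replicate 1 (5.21%) or 2 (4.17%), or RG2833 replicate 4 (3.07%) or 5 (3.47%), was left out. The cause was not tested. Over all genes, DESeq2 gave 7 at an adjusted p under 0.05 and edgeR 0. Between 21 and 26 genes of the set were higher in RG2833 in these 21 alternatives. Another prior count was run for the dendritic difference alone. Of all genes, 688 (5.66%) were at an unadjusted p under 0.05, 401 (3.30%) with the replicate block, and 375 (3.07%, without RG2833 replicate 4) to 1732 (14.2%, without untreated replicate 3) with 1 library left out. The labels number both groups 1 to 5, but same-numbered libraries did not deviate together over all genes (correlations from -0.49 to -0.034). These correlations cannot exclude a smaller effect shared by libraries of the same number.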
